A study of Mus musculus with 374 samples.

Results

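The genes described here carry out or prepare DNA replication, the work of S phase. They were taken by symbol from a list of 46 genes grouped by function, and 45 of them were matched among the 19829 mouse genes of the count table. Mcm7 is not analysed here. The 45 genes held 10469 of 2241250 UMIs (unique molecular identifiers, each tagging 1 captured mRNA molecule) on mouse genes, which was 0.467%. Of them 42 had at least 20 UMIs over all cells; Pole with 9, Rfc5 with 6 and Pold1 with 1 had fewer and are counted in sums only.

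Before S phase, the MCM helicase is loaded onto replication origins by Cdc6 and Cdt1. It is then activated with Cdc45 and the GINS complex under the kinases that cyclin E and other cyclins activate. At the fork, polymerase alpha with primase starts each strand, the clamp loader RFC sets the PCNA clamp, RPA covers single-stranded DNA, and Fen1 and Lig1 finish the lagging strand. Ribonucleotide reductase, thymidylate synthase and thymidine kinase supply deoxynucleotides, while Chaf1a, Chaf1b, Uhrf1 and Hells handle the chromatin left behind the fork. Many of these genes are transcribed by E2F factors once the retinoblastoma proteins release them. In marrow, erythroblasts are known for rapid divisions that end as haemoglobin builds up, mature granulocytes no longer divide, and much of the stem cell compartment rests.

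The data came from a C57BL/6 female of 10 to 13 weeks, with no treatment named, whose single cells were sorted into 1 plate and profiled by an adapted CEL-seq2 protocol, which counts molecules at the 3' ends of mRNAs. The 5 sorted populations gave 374 wells. From marrow came 44 wells of B lymphocytes (B220+ FSC-Alow), 96 of erythroblasts (Ter119+ CD44+, FSC-Amid/high), 96 of granulocytes (Mac1+ Gr1+) and 95 of progenitor/stem cells (Lin- Kit+ Sca1+), and from thymus 43 wells of T lymphocytes (CD3+ FSC-Alow). With a single animal a population counts as 1 sample, so no p-value is given, and every interval below is a 95% interval that covers counting error only. The FSC-Alow gates for B and T lymphocytes took small cells and the gate for erythroblasts took larger ones, and such a choice of size cannot be told apart from the population itself. By their well names the populations also filled separate rows of the plate, and this position cannot be told apart from the population either.

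Median depth ran from 3028.5 UMIs per well in B lymphocytes to 7959 in progenitor/stem cells, and no cell barcode was shared. Each of the 5 marker lists was highest in its own population, by 8.45 to 53.7 times the next. B lymphocyte well A8 went against its label, with 0% of its UMIs on B lymphocyte markers, 11.5% on granulocyte markers and a Gr1 fluorescence of 15209; it held 2 of the 316 UMIs of the replication genes in B lymphocytes. Haemoglobin took 23.5% of UMIs in erythroblasts and 1.21% to 2.83% in the other populations. For 13 of the 45 genes an exon overlaps another gene, on the opposite strand for Cdc45, Gins2, Pole, Rfc2, Rfc4, Rfc5, Fen1, Lig1, Tk1, Chaf1a, Slbp and Ccne2 and on the same strand for Rpa1. Whether the counting used strand is not given in the sources used here, so the counts of these genes are uncertain.

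The promoters of the genes carried letters that E2F factors are known to bind more often than promoters at large. RefSeq promoter windows of GRCm38.p6, from 250 bases before to 50 after the start, were found for 36 of the 45 genes. Searched on both strands, the letters TTTCCCGC, TTTCGCGC, TTTGCCGC or TTTGGCGC were present for 13 of the 36 genes (36.1%) and for 704 of 27025 genes in all (2.61%). The share was 9 of 30 for other replication genes (30.0%) and 1 of 36 for genes of G2 and mitosis (2.78%). The pattern turned over for the CHR letters TTTGAA or TTCGAA, found for 6 of the 36 replication genes (16.7%), for 28 of the 36 genes of G2 and mitosis (77.8%) and for 21.7% of all genes. Matches on the 2 strands may overlap each other. CCAAT was present for 58.3%, 83.3% and 41.1% of the same groups. A match is a description of the letters in a window and not a bound site, and a window without a match says nothing on the factor.

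Stretches upstream of the start with an E2F match are shown for 4 genes whose stretch overlaps no annotated exon, read on the gene's own strand, with the matches in capitals. In Mcm5 and Mcm6 the capitals hold 2 overlapping matches, 1 on each strand. They lie at chr8:75109316-75109403 (plus strand, Mcm5), chr1:128359768-128359855 (minus strand, Mcm6), chrX:93632246-93632333 (minus strand, Pola1) and chr17:56304088-56304175 (plus strand, Uhrf1). Uhrf1 has 2 RefSeq windows, and its stretch lies before the start of 1 of them but inside the gene as annotated by GENCODE (56303321 to 56323486).
Mcm5: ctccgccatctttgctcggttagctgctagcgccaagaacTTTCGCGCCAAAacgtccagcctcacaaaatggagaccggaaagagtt
Mcm6: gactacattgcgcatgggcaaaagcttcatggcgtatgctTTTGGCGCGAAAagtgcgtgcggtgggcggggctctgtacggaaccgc
Pola1: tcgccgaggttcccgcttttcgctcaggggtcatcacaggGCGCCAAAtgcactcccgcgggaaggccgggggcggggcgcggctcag
Uhrf1: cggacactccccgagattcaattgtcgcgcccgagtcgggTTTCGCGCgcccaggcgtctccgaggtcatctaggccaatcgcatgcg

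Erythroblasts held the largest share of replication mRNA and granulocytes the smallest, although T lymphocytes were lowest with another scaling described further on. Summed over the 45 genes, the share of UMIs on mouse genes was 0.902% in erythroblasts (interval 0.879% to 0.925%, 6014 UMIs) and 0.397% in progenitor/stem cells (0.384% to 0.411%, 3316 UMIs). It was 0.233% in B lymphocytes (0.208% to 0.260%, 316 UMIs), 0.160% in T lymphocytes (0.143% to 0.179%, 321 UMIs) and 0.124% in granulocytes (0.114% to 0.136%, 502 UMIs). No neighbours in this order had overlapping intervals, although the place of the B lymphocytes rested on 3 wells, as described further on. The intervals also leave out the spread between wells. It was 17.1 times that of Poisson counts in erythroblasts, 20.8 in progenitor/stem cells, 20.1 in B lymphocytes, 3.73 in T lymphocytes and 9.04 in granulocytes. Without well P21 the share in T lymphocytes was 0.145% (0.128% to 0.163%), which overlaps the interval of the granulocytes. The granulocytes in turn had 0.0840% (0.0749% to 0.0938%) without their wells J12 and I13. Of the 42 genes with at least 20 UMIs, 38 had their highest level in erythroblasts and 4 in progenitor/stem cells, whereas 22 were lowest in granulocytes, 16 in T lymphocytes and 4 in B lymphocytes. More replication mRNA in a population may come from more cells in S phase or from more mRNA per cell, and the summed values cannot tell these apart.

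The wells of a population differed among themselves. In erythroblasts the share per well ran from 0.0369% through a median of 0.860% to 1.62%, and 64 of 96 wells were above 0.5%. Progenitor/stem cell wells ran from 0.0549% through 0.199% to 1.21%, with 25 of 95 above 0.5%, so that a tail of wells lay far above the median. T lymphocytes ran from 0.0351% through 0.156% to 0.534% with 1 of 43 wells above 0.5%, granulocytes from 0% through 0.0819% to 0.945% with 2 of 96, and B lymphocytes from 0% through 0.142% to 1.77% with 4 of 44. All ranges overlapped. It took 21 of 96 erythroblast wells to hold 50% of the replication UMIs of that population, 14 of 95 progenitor/stem cell wells, 11 of 43 T lymphocyte wells, 7 of 96 granulocyte wells and 4 of 44 B lymphocyte wells.

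**Figure D1:**
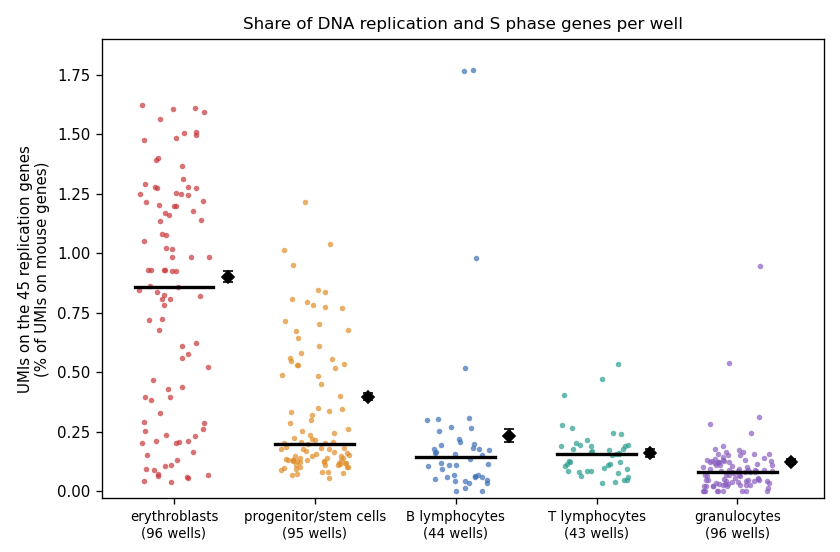
Share of UMIs on the 45 replication genes (% of UMIs on mouse genes, y axis) in each well, by sorted population (x axis); horizontal lines are medians over wells, and diamonds with bars are the share of the summed UMIs with its 95% counting interval. The erythroblast wells spread from 0.0369% to 1.62%, and 3 B lymphocyte wells and 2 granulocyte wells stand above the rest of their populations.

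Depth was then made equal by thinning each well to 1000 UMIs, which left out 1 B lymphocyte, 1 T lymphocyte, 2 granulocyte and 1 erythroblast well. At least 5 UMIs on replication genes remained in 67 of 95 erythroblast wells (70.5%), 25 of 95 progenitor/stem cell wells (26.3%), 3 of 43 B lymphocyte wells (6.98%), 2 of 42 T lymphocyte wells (4.76%) and 3 of 94 granulocyte wells (3.19%). At least 1 UMI remained in 93.7%, 88.4%, 69.8%, 81.0% and 53.2% of the same wells (100%, 100%, 95.5%, 100% and 90.6% before thinning). A single UMI in a well may also be free RNA. As a measure of RNA from other cells, haemoglobin in B lymphocytes, T lymphocytes, granulocytes and progenitor/stem cells stood at 12.0%, 7.52%, 6.55% and 5.16% of its erythroblast level. The replication genes summed stood at 25.8%, 17.8%, 13.8% and 44.0% of theirs. Of 39 replication genes with at least 20 UMIs in erythroblasts, those at or below the haemoglobin proportion numbered 6 in B lymphocytes, 9 in T lymphocytes, 4 in granulocytes and 0 in progenitor/stem cells, so that these few were no higher than haemoglobin itself; the part of free RNA in the other levels was not tested.

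The first comparison asked how erythroblasts, which divide as they mature, differ from the progenitor/stem cells. The replication genes were 2.27 times as abundant in erythroblasts (interval 2.18 to 2.37), and the median over genes was 1.21 on the log2 scale against -0.98 for all 8076 genes compared. Of 42 genes with at least 20 UMIs in both populations together, 23 were at least 2-fold higher in erythroblasts and 2 at least 2-fold lower. Among all genes compared, 12.1% were at least 2-fold higher and 49.4% at least 2-fold lower. With TMM scaling, which brought the median of all genes to -0.12, 35 of the 42 genes were at least 2-fold higher and 0 lower, and the summed log2 ratio was 2.05. The share of all genes past 2-fold was not computed with this scaling.

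**Figure D2:**
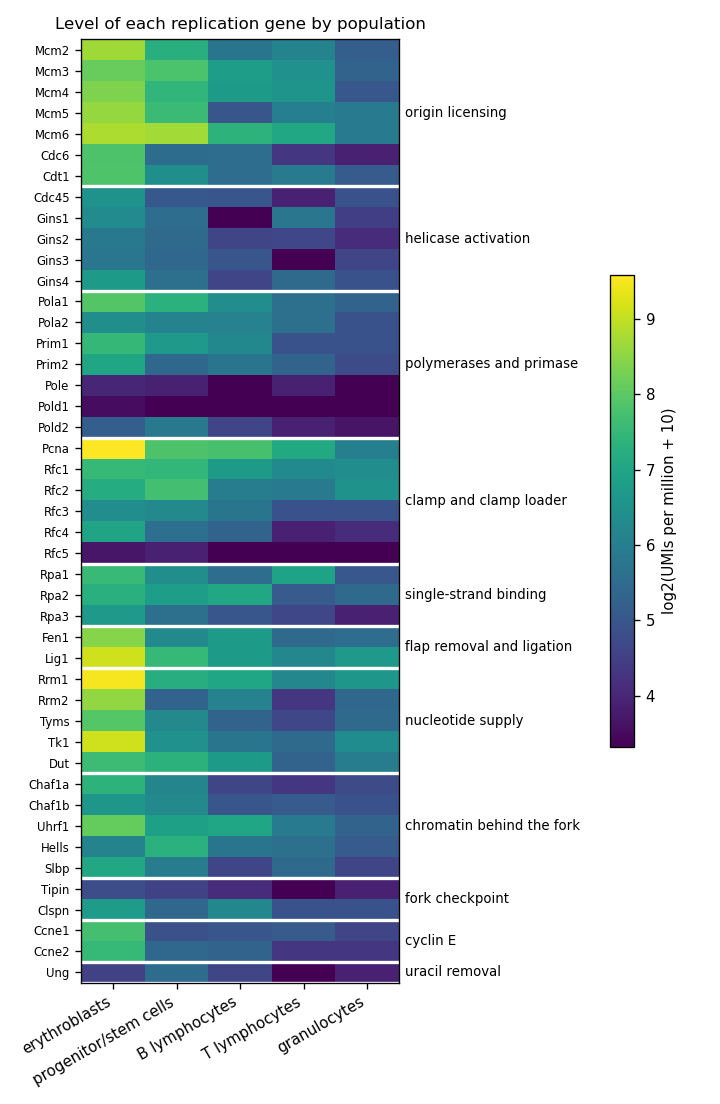
Level of each of the 45 genes (rows, grouped by role) in the 5 populations (columns), as log2 of CPM plus 10, where CPM is UMIs per 1000000 UMIs on mouse genes. Most genes have their highest level in erythroblasts, while Hells, Rfc2, Rfc5, Pold2 and Ung do in progenitor/stem cells.

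Nucleotide supply and cyclin E set erythroblasts apart the most. The 5 genes of nucleotide supply summed to 2050.3 CPM (UMIs per 1000000 UMIs on mouse genes; interval 1943 to 2162) in erythroblasts and 469.6 CPM (424 to 518) in progenitor/stem cells. They took 22.7% of the replication UMIs in erythroblasts (21.7% to 23.8%) and 11.8% in progenitor/stem cells (10.7% to 13.0%). Cyclin E genes took 4.19% (3.70% to 4.73%) against 1.30% (0.940% to 1.74%), and origin licensing went the other way with 24.9% (23.8% to 26.0%) against 30.9% (29.3% to 32.5%). These shares are free of the haemoglobin denominator, since they compare replication genes with each other.

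Rrm2, the small subunit of ribonucleotide reductase, whose amount peaks in S phase, was at 370.5 CPM in erythroblasts, 29.9 in progenitor/stem cells, 58.9 in B lymphocytes, 9.98 in T lymphocytes and 32.2 in granulocytes. Its log2 ratio of erythroblasts over progenitor/stem cells, 3.63 (3.03 to 4.28), was the highest of the 42. The large subunit Rrm1 was at 711 CPM in erythroblasts, 139 in progenitor/stem cells, 118 in B lymphocytes, 64.9 in T lymphocytes and 89.2 in granulocytes, with a log2 ratio of 2.36 (2.06 to 2.66). Both subunits were thus highest in erythroblasts, with the other 4 populations far below. Tk1, the cytosolic thymidine kinase of the salvage pathway, was at 547 CPM in erythroblasts, 80.3 in progenitor/stem cells, 44.2 in B lymphocytes, 34.9 in T lymphocytes and 71.9 in granulocytes, and its log2 ratio was 2.77 (2.39 to 3.17). Tyms, which makes thymidylate, stood at 235 and 67.1 CPM in the first pair. Dut, which removes dUTP, broke the pattern, with 186 CPM in erythroblasts and 153 in progenitor/stem cells and a log2 ratio of 0.28 (-0.09 to 0.65).

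Ccne1, a cyclin that activates Cdk2 at the entry into S phase, was at 204 CPM in erythroblasts and 19.2 in progenitor/stem cells, a log2 ratio of 3.41 (2.66 to 4.26). It stood between 14.9 and 24.9 CPM in the other 3 populations. Ccne2, its close relative, was at 174 and 32.3 CPM, a log2 ratio of 2.43 (1.81 to 3.09). Both cyclins E were thus highest in erythroblasts.

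Of the 7 licensing genes 4 were at least 2-fold higher in erythroblasts. Cdc6, which recruits the helicase to origins, was at 219 CPM in erythroblasts, 35.9 in progenitor/stem cells, 36.8 in B lymphocytes, 9.98 in T lymphocytes and 4.96 in granulocytes, with a log2 ratio of 2.61 (2.03 to 3.23). Its partner Cdt1 was at 223 and 76.7 CPM in erythroblasts and progenitor/stem cells. The helicase subunits differed from each other although they work as one ring. Mcm2 had a log2 ratio of 1.46 (1.15 to 1.78), Mcm5 of 1.06 and Mcm4 of 0.95, while Mcm3 had 0.33 (0.03 to 0.64) and Mcm6 0.10 (-0.13 to 0.33). Mcm6 was at 438 CPM in erythroblasts and 409.7 in progenitor/stem cells, with overlapping intervals, 155 in B lymphocytes, 125 in T lymphocytes and 49.6 in granulocytes.

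At the fork, Pcna, the sliding clamp and the gene with the most UMIs of the list, was at 754 CPM in erythroblasts (690 to 823), 218 in progenitor/stem cells (187 to 252), 206 in B lymphocytes (137 to 298), 129.7 in T lymphocytes (84.8 to 190) and 54.5 in granulocytes (34.2 to 82.5). Progenitor/stem cells and B lymphocytes did not differ beyond these intervals. The clamp loader did not follow its clamp. Rfc1, its large subunit, was at 172 CPM in erythroblasts and 168 in progenitor/stem cells, Rfc3 at 73.5 and 67.1 CPM, and Rfc2 at 136 and 200.0 CPM, a log2 ratio of -0.55 (-0.94 to -0.17). Of the 4 loader genes compared, Rfc4 alone was at least 2-fold higher, with 115 and 38.3 CPM. Fen1, the flap endonuclease, was at 340.5 and 68.3 CPM, a log2 ratio of 2.32 (1.89 to 2.76), and Lig1, the ligase that joins Okazaki fragments, at 546 and 172 CPM. Among the polymerase and primase genes 1 of the 5 compared was at least 2-fold higher, Prim2 of the primase with a log2 ratio of 1.89 (1.25 to 2.58). Pola1, the catalytic subunit of polymerase alpha, had 0.63 (0.28 to 0.98), and Pold2, an accessory subunit of polymerase delta, had -0.83 (-1.72 to 0.01).

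Hells, Ung, Pold2 and Rfc2 were the 4 genes with at least 20 UMIs whose highest level was in progenitor/stem cells. Hells, a chromatin remodeller needed for DNA methylation, was at 148 CPM in progenitor/stem cells (124 to 177), 60.0 in erythroblasts (42.9 to 81.7), 44.2 in B lymphocytes, 39.9 in T lymphocytes and 24.8 in granulocytes. The progenitor/stem cells lay above all other populations for this gene, and its log2 ratio in erythroblasts was -1.31 (-1.86 to -0.78). Ung, the glycosylase that takes uracil out of DNA, was at 35.9 CPM in progenitor/stem cells and 13.5 in erythroblasts, a log2 ratio of -1.41 (-2.67 to -0.30). Uhrf1, which also serves the copying of DNA methylation, did not share this order, with 262 CPM in erythroblasts and 107 in progenitor/stem cells.

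**Figure D3:**
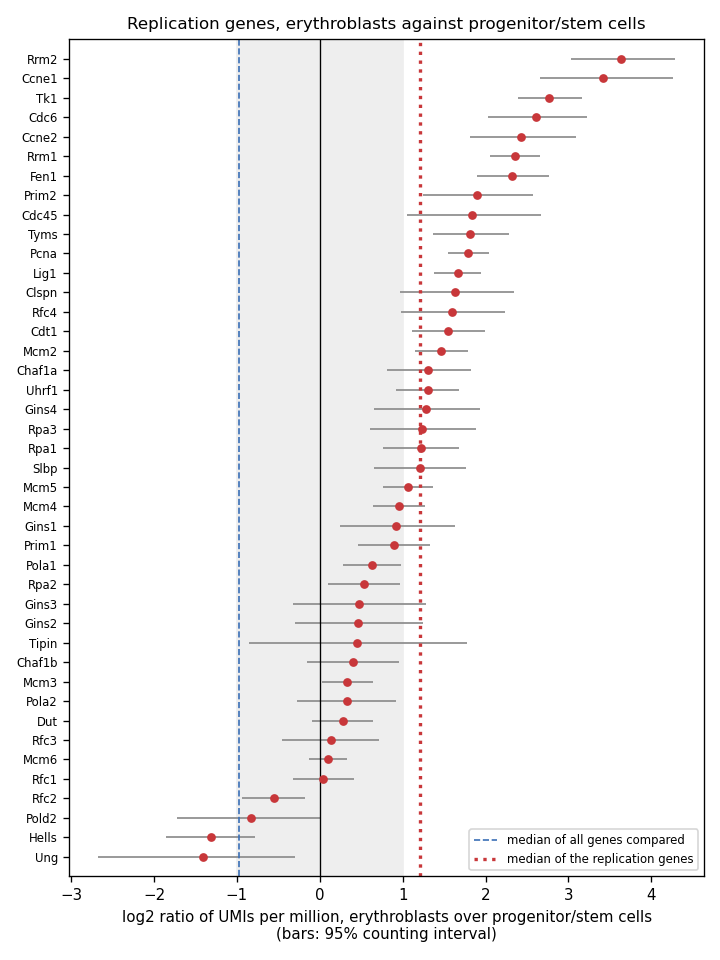
Log2 ratio of CPM, erythroblasts over progenitor/stem cells (x axis), for the 42 genes with at least 20 UMIs in both populations together (rows, in order of the ratio); bars are 95% counting intervals and the grey band marks less than 2-fold. The dotted line is the median of these genes, 1.21, and the dashed line the median of all 8076 genes compared, -0.98; Rrm2 and Ccne1 lie at the upper end and Hells and Ung at the lower end.

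Genes around the listed ones, from lists chosen by function, gave a divided picture. They stand beside 12.1% of all genes compared that were at least 2-fold higher in erythroblasts and 49.4% that were lower. Of 36 other replication genes 32 could be compared, 12 were at least 2-fold higher in erythroblasts, 3 lower, and their median log2 ratio was 0.57. Orc1, the regulated subunit of the origin recognition complex, led with 135 and 12.0 CPM, before Chtf18, of an alternative clamp loader, with 52.5 and 7.19 CPM and Asf1b, a histone chaperone, with 313 and 44.3 CPM. Cdca7, which works with Hells, was lowest but for Pold4, with 31.5 and 216 CPM. Other genes of nucleotide supply did not share the height of Rrm2 and Tk1. Of 14 compared, 1 was at least 2-fold higher and 9 lower, with a median of -1.39 beside -0.98 for all genes. Nme2 and Tk2 were at 16.5 and 4.50 CPM against 178 and 27.6, and Dctd had 0 UMIs against 41. The 1 higher gene was Dck, the deoxycytidine kinase of the salvage pathway, at 346 and 81.5 CPM. Genes of G2 and mitosis were higher throughout, with 40 of 40 compared at least 2-fold higher, a median of 3.12 and sums of 22681 and 2822 CPM. Ube2c, the ubiquitin-conjugating enzyme of mitotic exit, had a log2 ratio of 5.13, before Kif20a with 4.57 and Nek2 with 4.53, and Kif20b, Cks1b and Bub3 were lowest with 1.22, 1.56 and 1.61.

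The genes of the upstream switch summed to 4591 CPM in erythroblasts and 3136 in progenitor/stem cells, a log2 ratio of 0.55 (0.47 to 0.63), and differed in both directions one by one. Of 22 genes for E2F, Rb, D-type cyclins and CDK inhibitors that could be compared, 8 were at least 2-fold higher in erythroblasts and 9 at least 2-fold lower. The shares among all 8076 genes compared were 12.1% and 49.4%. E2f2, an activating E2F, was at 1069 CPM in erythroblasts and 63.5 in progenitor/stem cells, Cdkn2c, a CDK inhibitor, at 234 and 22.8 CPM, and Rb1, the retinoblastoma protein, at 280.5 and 28.7 CPM. In the other direction, Cdk6, the partner of D-type cyclins, was at 75.0 and 1212 CPM, and Ccnd2 at 7.50 and 302 CPM. Ccnd1 had 0 UMIs in erythroblasts, which allows up to 4.50 CPM, and 39.5 CPM in progenitor/stem cells.

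Within the erythroblasts, replication mRNA was lower where the erythroid surface protein Ter119 was higher. This split by the fluorescence recorded at sorting was chosen after values had been seen. In the tertile of wells with the lowest Ter119 the share was 1.23% (1.19% to 1.27%), in the middle tertile 0.918% (0.879% to 0.960%) and in the highest tertile 0.390% (0.362% to 0.420%), with 32 wells in each. Wells overlapped, since they ran from 0.289% to 1.62% in the lowest tertile and from 0.0369% to 1.20% in the highest. The ratio of the lowest over the highest tertile was 3.15 (2.90 to 3.42). Haemoglobin took 13.3%, 25.5% and 36.6% of UMIs in the 3 tertiles. With haemoglobin left out of the total the shares were 1.42%, 1.23% and 0.615%, and per 100 UMIs of the ERCC spike-in RNA the replication UMIs numbered 26.3, 15.3 and 5.48. The order was the same on all 3 scales.

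Gene by gene the direction was shared. Of 38 genes with at least 20 UMIs in the lowest and highest tertiles together, 33 were at least 2-fold higher in the lowest tertile, against 39.3% of 2879 genes in all, and 0 were at least 2-fold lower, against 6.32%. Their median log2 ratio was 2.01, and that of all genes 0.67. At the upper end, Rfc4 was at 199 CPM in the lowest tertile and 16.7 in the highest, Dut at 298 and 44.4, and Mcm3, a helicase subunit, at 419.7 and 66.6, a log2 ratio of 2.66 (1.79 to 3.65). Rpa2, of the single-strand binding complex, had 65 UMIs against 2 and Chaf1b, of the chromatin assembly factor, 39 against 2. At the lower end, Slbp, which binds histone mRNAs, was at 139.9 and 122 CPM, a log2 ratio of 0.20 (-0.60 to 1.02), and Tk1 at 604 and 399.8 CPM, a log2 ratio of 0.59 (0.19 to 1.02). Gins1, Cdc45 and Fen1 followed with 0.76, 0.88 and 0.97. Rrm2 and Rrm1, so high in erythroblasts as a whole, had 1.16 and 1.22 and stood well below the helicase genes, whose sum was 3229 CPM in the lowest tertile and 849.6 in the highest with Cdc6 and Cdt1 included.

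Genes of G2 and mitosis did not follow the replication genes down. Their share was 1.96% (1.91% to 2.02%) in the lowest Ter119 tertile, 2.37% in the middle and 2.60% (2.53% to 2.68%) in the highest. With haemoglobin left out of the total, the shares of these genes were 2.27%, 3.18% and 4.11%, so that they rose on this scale too. Per 100 ERCC UMIs the UMIs of G2 and mitosis genes numbered 42.0, 39.4 and 36.6. On that scale they differed little while the replication genes differed several-fold. Ube2c was at 729 CPM in the lowest tertile and 2177 in the highest, and Cenpf, a kinetochore protein, at 545 and 1360.5. Among the upstream genes E2f1, an activating E2F, was at 169 and 22.2 CPM and Ccnd3, the D-type cyclin of erythroid cells, at 1208 and 378. The CDK inhibitor Cdkn1b lay the other way, at 77.3 and 239 CPM.

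**Figure D4:**
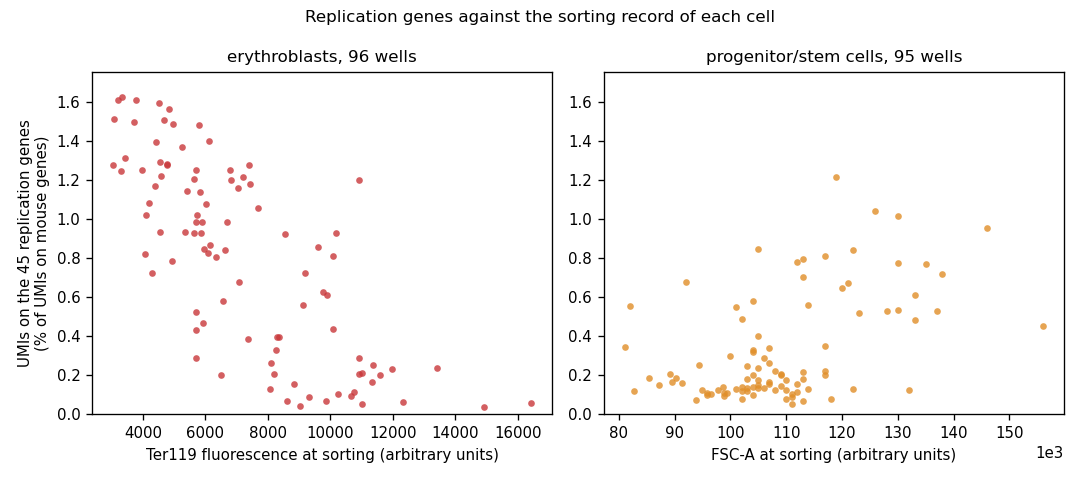
Share of UMIs on the 45 replication genes per well (y axis, % of UMIs on mouse genes) against fluorescence or scatter recorded at sorting (x axis, arbitrary units), for erythroblasts by Ter119 (left) and progenitor/stem cells by FSC-A, a measure of cell size (right). Erythroblast wells fall from the upper left to the lower right (Spearman's rho -0.76, 96 wells), and most progenitor/stem cell wells above 0.5% have a high FSC-A (rho 0.41, 95 wells).

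Over the 96 erythroblast wells, Spearman's rho of the replication share with Ter119 was -0.76 (-0.67 with haemoglobin left out of the total, -0.69 after thinning to 1000 UMIs in 95 wells), with the haemoglobin share -0.83, with CD44 0.45 and with total UMIs 0.51. Shares of one well have a common total and depth moved with them, and the part of depth was not tested. With the 36 other replication genes rho was 0.77 and with the genes of G2 and mitosis -0.53. Taken singly, the 34 genes with at least 50 UMIs had rho values with Ter119 from -0.61 (Pcna) to -0.24 (Cdc45), with a median of -0.48. In all but 1 of 561 pairs of these genes rho was above 0, with a median of 0.37. The 10 genes outside the list whose share followed it most closely were mainly of the ribosome, led by Rplp1 with 0.82 and Rplp0 with 0.82 among 1834 genes, with Gm15427, Tmem14c, Gm6472, Rps19, Rpl10, Gm10288 and Rps23-ps2 among those behind. The Gm genes and Rps23-ps2 may share reads with the ribosomal protein genes they resemble, and Tmem14c, a mitochondrial porphyrin transporter, stood among them with 0.82.

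Among the progenitor/stem cells, replication mRNA was higher in the larger cells. This split too was chosen after values had been seen. By tertiles of FSC-A the share was 0.236% (0.218% to 0.256%) in the 32 smallest cells, 0.267% (0.247% to 0.287%) in the 31 of the middle and 0.626% (0.599% to 0.654%) in the 32 largest. Wells ran from 0.0718% to 0.678% in the smallest tertile and from 0.0680% to 1.21% in the largest, with medians of 0.140% and 0.547%. Median depth was 7174.5 UMIs in the smallest tertile and 9635 in the largest, and the replication UMIs per 100 ERCC UMIs were 3.82 and 14.5. By tertiles of CD44 the share was 0.185%, 0.344% and 0.577%, by SSC-A 0.190%, 0.352% and 0.601%, by c-Kit 0.309%, 0.396% and 0.482%, and by Sca-1 0.387%, 0.526% and 0.246%. For Sca-1 the middle tertile was thus highest and the tertile with the most Sca-1 lowest.

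Of 38 genes compared between the largest and smallest tertiles, 29 were at least 2-fold higher in the larger cells and 0 at least 2-fold lower, against 5.48% and 3.87% of 5433 genes in all. The ratio of the sums was 2.65 (2.42 to 2.91), and the median log2 ratio was 1.56 against 0.02 for all genes. Hells led, with 259 CPM in the largest tertile and 39.4 in the smallest, a log2 ratio of 2.71 (1.76 to 3.82). Next came Uhrf1 with 200.1 and 31.6 CPM and Rfc4 with 73.9 and 11.8 CPM, before Gins2 with 20 UMIs against 3 and Ung with 20 against 1. The 5 genes grouped under chromatin behind the fork were Chaf1a, Chaf1b, Uhrf1, Hells and Slbp, which binds histone mRNAs. Together they gave the highest ratio of the roles with more than 2 genes, a log2 ratio of the sums of 2.39 (1.89 to 2.92). The clamp and its loader gave 0.96 (0.66 to 1.26). Rfc2 with 0.29 (-0.26 to 0.84), Rfc1 with 0.31 and Rrm2 with 0.34 (-1.04 to 1.82) were lowest, followed by Rpa2 with 0.46 and Gins4 with 0.56.

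Between these tertiles of size the other lists divided as well. Of 26 other replication genes 17 were at least 2-fold higher in the larger cells and 0 lower, whereas of 24 genes of G2 and mitosis 1 was higher and 2 lower. Among all genes these shares were 5.48% and 3.87%. The share of G2 and mitosis genes was 0.307% in the smallest tertile, 0.187% in the middle and 0.339% in the largest. Birc5, of the chromosomal passenger complex, was the 1, with 80.1 and 39.5 CPM, and Ccnb2, a mitotic cyclin, was lowest with 24.6 and 94.7 CPM. E2f1 was at 105 CPM in the largest tertile and 27.6 in the smallest.

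**Figure D5:**
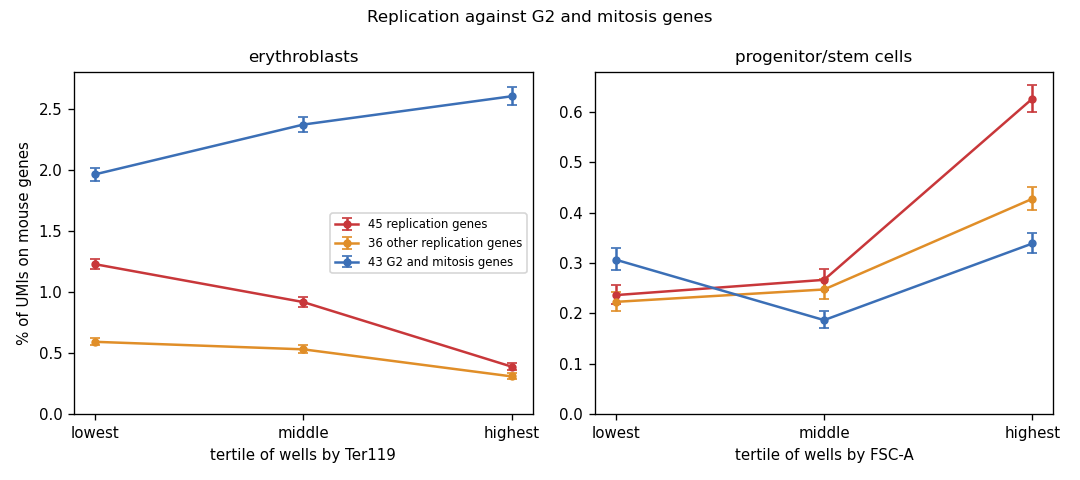
Share of UMIs (y axis, % of UMIs on mouse genes, with 95% counting intervals) on the 45 replication genes, 36 other replication genes and 43 genes of G2 and mitosis, in tertiles of the erythroblast wells by Ter119 (left) and of the progenitor/stem cell wells by FSC-A (right). The replication genes go from 1.23% to 0.390% as Ter119 goes up, while the genes of G2 and mitosis go from 1.96% to 2.60%; the largest progenitor/stem cells have 0.626%.

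Over the 95 progenitor/stem cell wells, rho of the replication share with FSC-A was 0.41 (0.48 after thinning), with SSC-A 0.51, with CD44 0.46, with c-Kit 0.29, with Sca-1 -0.16 and with total UMIs 0.52. With the genes of G2 and mitosis it was 0.42 (0.33 after thinning), above 0, whereas in erythroblasts it was -0.53. In 299 of 300 pairs of the 25 genes with at least 50 UMIs rho was above 0, with a median of 0.35. The genes outside the list that followed it most closely were here in part of replication themselves. Dtl, which directs the destruction of Cdt1 in S phase, led 3249 genes with 0.69, before Cdca7 with 0.65, and Tuba1b, Dek, Anp32b, Cks1b, Wdhd1, Hnrnpab and Atad5 were among the 10. Wdhd1 and Atad5 act at the fork.

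The remaining comparisons set granulocytes, T lymphocytes and B lymphocytes against the same progenitor/stem cells, which they therefore share. Granulocytes had 0.313 times the replication mRNA of progenitor/stem cells (0.285 to 0.344). Of 41 genes compared 30 were at least 2-fold lower and 0 higher, against 48.2% and 11.7% of 7826 genes in all, with a median log2 ratio of -1.76 beside -0.95 for all genes. With TMM scaling, which brought the median of all genes to -0.18, 18 were at least 2-fold lower. The summed log2 ratio was then -0.90 in place of -1.67. Per ERCC UMI it was -2.63, beside a median of -1.91 for all genes. With TMM scaling the T lymphocytes had -1.29, so that on this scale they lay below the granulocytes. The helicase subunits Mcm6, Mcm4 and Mcm3 were lowest. Mcm6 was at 49.6 against 409.7 CPM (log2 ratio -3.05, -3.78 to -2.40), Mcm4 at 22.3 against 164 CPM and Mcm3 at 29.7 against 214 CPM. The subunits Mcm2, at 27.3 against 145 CPM, and Mcm5, at 49.6 against 181 CPM, were not as far down. Pold2 had 1 UMI against 40, and Hells a log2 ratio of -2.58. Nucleotide supply was less far down, with Rrm2 at 32.2 against 29.9 CPM and Tk1 at 71.9 against 80.3 CPM, differences within their counting intervals. Cdc45, Ccne1 and Rrm1 came next with log2 ratios of -0.20, -0.37 and -0.64.

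Wells J12 and I13 held 37.5% of the 502 replication UMIs of granulocytes. Well J12 had 67 of them (0.945%), with 0.0423% of its UMIs on late granulocyte genes and a Gr1 fluorescence of 1423. These late genes summed to 46515 CPM in granulocytes as a whole and to 845 CPM in progenitor/stem cells. Well J12 thus lay far below its own population, and whether its cell was a granulocyte was not tested. Well I13 had 121 (0.540%), with 1.11% on early granule genes and an FSC-A of 227000, the largest among the granulocytes. Without these wells the share in granulocytes was 0.0840% (0.0749% to 0.0938%), and the log2 ratio to progenitor/stem cells was -2.24 in place of -1.67. By tertiles of Gr1 fluorescence the share was 0.177% in the lowest and 0.0767% and 0.0820% in the others. Both wells were in the lowest tertile and held 188 of its 330 replication UMIs, and without them its share was 0.0904% (0.0762% to 0.107%). The medians over wells were 0.0851%, 0.0663% and 0.0848%, and rho with Gr1 over the 96 wells was 0.0085.

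T lymphocytes from the thymus had 0.403 times the replication mRNA of progenitor/stem cells (0.358 to 0.452). Of 41 genes compared 28 were at least 2-fold lower and 0 higher, against 19.4% and 9.17% of 7565 genes in all, and the median log2 ratio was -1.26 beside -0.26. With scran size factors, where the median of all genes was -0.12, 18 were at least 2-fold lower. The summed log2 ratio was then -0.84 in place of -1.31. Per ERCC UMI it was -2.20, beside a median of -1.16 for all genes. Dut was lowest, at 29.9 against 153 CPM (log2 ratio -2.36, -3.83 to -1.19), before Prim1, of the primase, at 20.0 against 92.2 CPM and Tyms at 15.0 against 67.1. Rpa1, the large subunit of the single-strand binding complex, was highest, at 115 against 75.5 CPM (log2 ratio 0.60, -0.15 to 1.31). Ccne1 with 0.38, Gins1 with 0.27, Prim2 with -0.11 and Gins4 with -0.18 followed. Chaf1a had 2 UMIs against 52, and Rpa2 a log2 ratio of -2.03. Well P21, with 43 UMIs and the highest share in the population, had 4.81% of its UMIs on haemoglobin. Over the 43 wells, rho of the replication share with the haemoglobin share was 0.41 (0.05 after thinning, 42 wells).

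B lymphocytes had 0.586 times the replication mRNA of progenitor/stem cells (0.520 to 0.658). Of 40 genes compared 14 were at least 2-fold lower, against 19.3% of 7297 genes in all, and 1 at least 2-fold higher, against 7.51%. The count depended on the scaling, with 4 lower by scran size factors, 7 with wells weighted equally and 36 per ERCC UMI. The summed log2 ratio was -0.33, -0.47 and -2.10 in place of -0.77. All genes moved as well, with medians of -0.04, -0.32 and -1.64 in place of -0.32, and their share past 2-fold was not computed in these settings. The 1 higher gene was Clspn, a checkpoint adaptor at the fork, with 9 UMIs against 27 and a log2 ratio of 1.03 (-0.24 to 2.17). Mcm5 was lowest, at 22.1 against 181 CPM (log2 ratio -3.03, -5.33 to -1.46), followed by Rfc2, Hells, Mcm2 and Chaf1b with -1.96, -1.75, -1.71 and -1.60. Rrm2 had 0.98 (-0.38 to 2.17), on 8 UMIs, before Fen1, Prim2 and Rpa2 with 0.49, 0.45 and 0.30.

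These values rested on 3 wells. Wells B21, B18 and A11 had shares of 1.77%, 1.77% and 0.979% and held 49.7% of the replication UMIs of the population, while the next highest well had 0.517%. In these 3 wells genes of G2 and mitosis took 1.56% of UMIs, against 0.273% in the other 41, and their B220 fluorescence was 358, 717 and 686, within the lowest tertile of the population (352 to 927). They were among larger cells, with FSC-A between 80768 and 82560. Haemoglobin was 6.23%, 4.72% and 1.08% of their UMIs, beside a population median of 1.80%. Well B21 was among wells B19 to B24, where haemoglobin took 5.21% to 13.6% of UMIs. Over all 44 wells, rho of the replication share with the haemoglobin share was 0.59 (0.38 after thinning, 43 wells). The part of haemoglobin in these shares was not tested. Without wells B21, B18 and A11 the share in B lymphocytes was 0.127% (0.108% to 0.149%), below that of the T lymphocytes, and the log2 ratio to progenitor/stem cells was -1.64 in place of -0.77.

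T and B lymphocytes were both gated for small size, and the last comparison put them side by side. T lymphocytes had 0.688 times the replication mRNA of B lymphocytes (0.588 to 0.807), and this ratio turned over without the 3 wells, from a log2 value of -0.54 to 0.33. Few genes could be compared. Of 11 genes with at least 20 UMIs, 1 was at least 2-fold higher in T lymphocytes and 3 at least 2-fold lower, against 20.1% and 9.86% of 3064 genes. Rpa1 was at 115 CPM in T and 36.8 in B lymphocytes (log2 ratio 1.64, 0.21 to 3.39), and Rpa2 of the same complex at 24.9 and 125 CPM (-2.33, -4.12 to -0.83), so that the 2 subunits stood in opposite order, on 23 against 5 and 5 against 17 UMIs. Fen1 and Uhrf1 were also at least 2-fold lower in T lymphocytes, with log2 ratios of -1.45 and -1.24. Genes at 0 in T lymphocytes were Gins3, Tipin, Ung, Pold1 and Rfc5, which allows up to 15.0 CPM each, and in B lymphocytes Gins1, Pole, Pold1 and Rfc5, which allows up to 22.1 CPM.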

How the data were processed

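The table of UMI counts, whole numbers for every gene in each well, was used as deposited by the authors, who made it with the scPipe package after merging UMIs that differ by sequencing error. For this table the aligner, build, annotation and strand setting were not given in the sources used here. Wells were assigned by their labels; 9 columns that match no labelled sample were not used, and no doublet caller was run on these sorted single cells. ERCC spike-in rows were kept apart, and 74 mouse identifiers without a symbol in the gene table (1107 UMIs) stayed in the totals. Depth per well was 8 to 24033 UMIs on mouse genes, so single genes were read from sums over a population.

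UMIs were summed per population and divided by UMIs on mouse genes. Cells of 1 mouse are not replicates, so ratios carry exact conditional binomial intervals, sums exact Poisson and shares exact Clopper-Pearson intervals. A minimum of 20 UMIs over both populations was set for a gene to be compared, sums under 3 UMIs were set to 3 for a ratio, and 2-fold was the bound for counts. Members and lists were chosen with earlier results of these data known. Genes named are, by rule, the members with at least 20 UMIs by role, the 5 highest and 5 lowest ratios per comparison, the 3 highest and lowest of other lists and the 10 genes most like the members (at least 50 UMIs and a UMI in 25% of wells), of which some are not reported here. The splits by Ter119 and FSC-A, and the genes named there, were added after values were seen. The ratio intervals were also run on simulated Poisson counts, which carry no spread between wells. That run checks the calculation only and cannot show how the intervals hold for wells that differ more. Gene positions came from GENCODE M21 (GRCm38). Tools were Python 3.11.15, pandas 2.3.3, SciPy 1.17.1, R 4.3.3, edgeR 4.0.16 (TMM factors only) and scran 1.30.0 (size factors only); alternatives are given in the closing section.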

Additional observations from a re-analysis of the deposited data

How the results depend on the processing

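Counts of UMIs from 1 mouse limit everything here: no value has an error over animals, genes with few UMIs have wide intervals, and a level of 0 means only fewer molecules than the depth shows. In all, 17 other settings were tried, of which 5, those leaving out named wells other than A8 or haemoglobin, were chosen after seeing the data. Of the 50 recomputed log2 ratios, 24 stayed within the original counting interval, 25 left it with their direction kept and 1 reversed; of 104 recomputed counts of genes, 68 stayed within 1.5 times. The cause of the shifts was not tested unless named. Of 25 recomputed levels, 9 stayed within their interval; per ERCC UMI and with scran factors the unit differs and no level was computed.

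Log2 ratios of the summed genes were 1.18 for erythroblasts, -1.67 for granulocytes, -1.31 for T lymphocytes and -0.77 for B lymphocytes over progenitor/stem cells, and -0.54 for T over B lymphocytes. Weighting wells equally gave 1.30, -1.00 and -0.47 for erythroblasts, T and B lymphocytes. Without the 10 most abundant genes of each population erythroblasts, granulocytes and B lymphocytes had 1.56, -1.30 and -0.50. TMM gave 2.05, -0.90, -1.29 and -0.67 for erythroblasts, granulocytes, T and B lymphocytes, so that T lymphocytes were lowest. Scran size factors gave 2.32, -0.91, -0.84 and -0.33 for the same 4. Per ERCC UMI, which keeps differences in RNA content, the values were 1.07, -2.63, -2.20 and -2.10, and -0.11 for T over B. Thinned to 1000 UMIs, erythroblasts, T and B lymphocytes had 1.28, -1.04 and -0.46. Without haemoglobin, erythroblasts had 1.55. Without wells J12 and I13 granulocytes had -2.24. Without wells B21, B18 and A11, B lymphocytes had -1.64 and T over B reversed to 0.33; without wells B19 to B24, where haemoglobin took 5.21% to 13.6% of UMIs, these were -1.16 and -0.15.

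Counts of genes at least 2-fold higher in erythroblasts (23) were 35 with TMM, 36 with scran and 15 thinned; those lower (2) were 0 with TMM and scran, and 1 thinned, with at least 50 UMIs or without the 10 most abundant genes. In granulocytes the lower count (30) was 18 with TMM and 4 thinned, where 4 genes were left to compare, and the higher count (0) was 1 with scran. In T lymphocytes the lower count (28) was 18 with scran and 3 of 5 thinned, and the higher count (0) was 1 with scran or equal wells. In B lymphocytes the higher count (1) was 2 with equal wells, TMM, scran, without the 10 most abundant genes or without well A8, and 0 per ERCC UMI, thinned, with at least 50 UMIs or where the interval had to exclude equality. The lower count (14) was 7 with equal wells or without the 10 most abundant genes, 4 with scran, 36 per ERCC UMI, 2 thinned and 8 by the interval. For T over B lymphocytes the higher count (1) was 0 thinned or with at least 50 UMIs and 2 with at least 10, and the lower count (3) was 0, 0 and 8. Thinning and the higher minimum leave fewer genes to compare. The share of all genes past 2-fold was not computed for these settings, in several of which the median of all genes moved as well. No paired analysis was possible because all populations came from 1 mouse and each well holds a different cell.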
